A study of Mus musculus with 12 samples.

Results

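The data compared mature CD8αα T cells with the thymic precursors of intraepithelial lymphocytes (IELp), across a control and a knockout (KO) genotype. Each stage was represented by 6 libraries, so that all 12 libraries of the series entered. KO CD8αα cells were splenocytes and control CD8αα cells were intraepithelial lymphocytes (IELs), the T cells of the gut lining. IELp came from the thymus of KO and of control mice. All mice were C57BL/6 and carried floxed alleles of Lrf, the gene that the count table lists as Zbtb7a. KO mice also carried Cd4-Cre, a recombinase driven by a Cd4 promoter and active from the stage at which thymocytes express CD4, and control mice lacked it. CD8αα cells had been sorted as CD45+ TCRβ+ cells with CD8α and without CD4 or CD8β. IELp had been sorted as TCRβ+ cells without CD4 or CD8α that stained for CD122 and H-2Kb, highly for CD5 and PD-1, and not for CD44. Each group had 3 libraries, and the labels do not say that these came from separate mice, so the spread between them may be technical.

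Among 15757 genes with enough counts to test, those were collected for which all 6 CD8αα libraries lay on one side of all 6 IELp libraries in CPM, a gene's count scaled to the summed gene counts of its library. This rule uses the contrast itself, so the separation of a member is a description and not a test. In all 1073 genes lay above and 3004 lay below, out of 48663 gene rows in the table.

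CD8αα IELs arise from self-reactive thymocytes that lose both coreceptors, receive strong T cell receptor (TCR) signals and leave the thymus as precursors. They take up CD8αα and a cytotoxic, natural killer (NK)-like gene program after they settle in the gut. LRF is a zinc finger transcription factor known for its role in CD4 T cell identity, where it acts beside ThPOK to hold CD8 lineage genes silent.

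The 2 stages differ in tissue as well as in maturity, and the 2 CD8αα groups differ from each other in both tissue and genotype. Whether a difference between the stages comes with maturity or with leaving the thymus cannot be told apart. The sample records of the 2 stages also differ in their description fields. If the stages were prepared as separate sets of libraries, that cannot be told apart from stage. In sorted bulk samples fewer cells of a type and less RNA per cell cannot be told apart either. Each stage step was therefore also measured within its own genotype. The KO step set KO spleen CD8αα cells against KO IELp and the control step set control CD8αα IELs against control IELp. These steps share no library. Below, ± beside CPM is the SD over the 3 libraries of a group, and ± beside a log2 fold change is its standard error (SE) in the edgeR fit.

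In the quasi-likelihood test of edgeR, fitted over all 12 libraries with the steps averaged, 4812 genes were called higher in CD8αα cells and 5113 lower at an adjusted p under 0.05, which is 30.5% and 32.4% of tested genes. Either way that is 63% of tested genes. On log2 of CPM plus a pseudocount of 1, without TMM scaling, limma called 3613 higher and 7068 lower. The median of all genes was then 0.14 lower on the log2 scale than in the edgeR fit, which used TMM. The genes without overlap made up 6.81% of tested genes above and 19.1% below. When libraries were also scaled by their TMM factors, 1725 genes (10.9%) lay above and 1953 (12.4%) below. TMM scaling factors were 0.891 to 0.986 in CD8αα libraries and 1.06 to 1.07 in IELp libraries, so this choice moves the balance between the directions. Every one of the 1073 genes above also lay above on the TMM scale, and 1953 of the 3004 genes below also lay below on it.

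The edgeR test called 1916 genes higher in both steps (12.2%) and 2014 lower in both (12.8%), and 1059 genes (6.72%) in opposite directions. Genes that did not overlap and were called the same way in the average and in each step are referred to as shared: 1042 (6.61%) were shared and higher in CD8αα cells and 1845 (11.7%) shared and lower. Of these, 460 and 712 changed at least 2-fold in each step, and 131 in each direction changed at least 8-fold. Shared higher genes held 14 to 14.3% of gene counts in KO spleen CD8αα libraries and 21.1 to 21.3% in control IEL libraries, against 7.74 to 7.81% in KO IELp and 7.77 to 7.90% in control IELp. Shared lower genes held 10.3 to 10.6% in KO spleen cells and 7.34 to 7.55% in control IELs, against 17.0 to 17.2% in KO IELp and 17.3 to 17.5% in control IELp.

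Size differed between the steps for many genes whose direction did not. The edgeR test of the difference, KO step minus control step, called 7353 of all tested genes (46.7%), 600 of the 1042 shared higher genes and 912 of the 1845 shared lower ones. In 493 of the 600 and 829 of the 912 the change was larger in the control step, to the gut, than in the KO step, to the spleen. The median log2 fold change of shared higher genes was 0.98 in the KO step and 1.44 in the control step, and that of shared lower genes was -0.78 and -1.31.

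**Figure D1:**
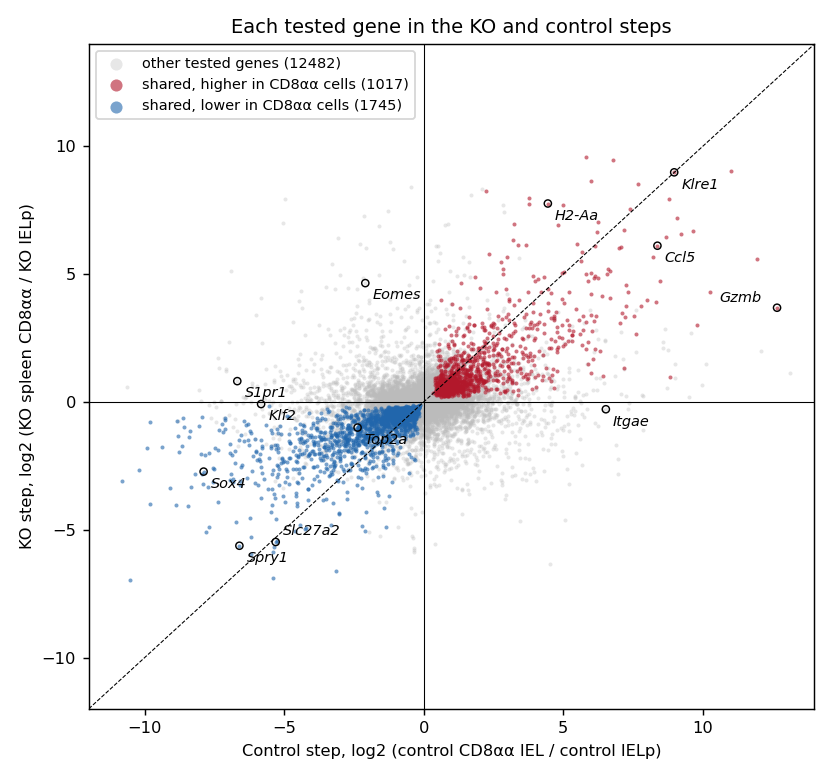
Each point is a tested gene with counts in all 4 groups, with the log2 fold change of the control step on the x axis and of the KO step on the y axis. Shared genes are red (higher in CD8αα cells) or blue (lower), other genes are grey, and the dashed line marks equal steps. Klre1 and Spry1 sat near the line, Gzmb and Sox4 moved further in the control step, and S1pr1, Itgae and Eomes moved in opposite directions.

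At the edge of the rule, the lowest CD8αα library and the highest IELp library differed by under 0.1% for the 3 genes just inside with at least 10 CPM. Both libraries stood at 15.7 CPM for H2-Q4, 168 CPM for Rin3 and 218 CPM for Ggnbp2. Just outside, B4galnt2 had 0.149 CPM in its lowest CD8αα library and 0.158 CPM in its highest IELp library. Polr1e reached 51.6 CPM and Lonp1 108 CPM in the highest CD8αα library as well as in the lowest IELp library.

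Libraries held between 13432598 and 19947734 gene counts. Markers of other cells moved with the groups. The summed level of 10 B cell markers was 1332 to 1396 CPM in KO spleen cells and 463 to 659.9 CPM in control IELs, against 551 to 580.3 CPM in KO IELp and 434 to 445 CPM in control IELp. Most of this was Ighm. The defining marker Ms4a1 had 12.6 CPM in KO spleen cells and no counts in the other 3 groups. The 16 gut epithelial markers summed to 14 to 17.2 CPM in KO spleen cells and 523 to 751 CPM in control IELs, against 67.1 to 69.1 CPM in KO IELp and 67.1 to 75.3 CPM in control IELp. Most of this was Cdh1, at 369, 421 and 400.3 CPM in the control IEL libraries, and Epcam, at 123, 127 and 189 CPM. Control IEL replicate 3 stood apart: the keratin Krt8 was at 22.6 CPM there, against 1.35 and 1.54 CPM in the other control IEL libraries. When it was left out, 1163 genes were shared and higher and 1937 shared and lower. The 15 myeloid markers summed to 63.9 to 92.2 CPM in KO spleen cells and 60.4 to 65.4 CPM in control IELs. In IELp they summed to 30.6 to 36.4 CPM (KO) and 27.2 to 33.8 CPM (control). In control IELs most of this was Itgam, at 29.3 CPM, and Csf1r, at 21.2 CPM, and 8 of the 15 had no counts. Csf1r was at 37 CPM in KO spleen cells, 22.3 CPM in KO IELp and 20 CPM in control IELp. Lyz2 had 12.3 CPM in KO spleen cells and 0.0724 CPM in control IELs. Thymic epithelial markers, 8 genes, summed to between 42.5 and 114 CPM over all libraries. Most of this was Ly75, at 99.1 CPM in KO spleen cells and 45.2 CPM in control IELs, against 48.3 CPM in KO IELp and 53.7 CPM in control IELp. Foxn1, Krt5 and Krt14 had no counts in any library. The 9 erythroid and platelet markers summed to 2.38 to 37.8 CPM in KO spleen cells and stayed under 1 CPM outside the spleen. Of these the platelet gene Ppbp was at 9.63, 14.1 and 0.298 CPM in KO spleen replicates 1 to 3. The 6 γδ T cell markers, chiefly TCRγ constant genes, were at 465 to 474 CPM in KO spleen cells. They were at 2326 to 2508 CPM in control IELs, 343 to 418 CPM in KO IELp and 342 to 400.1 CPM in control IELp. Not every member followed this sum. The TCRδ constant gene Trdc had 15.7 CPM in KO spleen cells and 8.63 CPM in control IELs. In IELp Trdc was higher, at 24.7 CPM (KO) and 20.9 CPM (control). Sox13 had no counts in KO spleen cells and 0.041 CPM in control IELs, against 3.02 CPM in KO IELp and 3.39 CPM in control IELp. The 7 markers of CD4 and CD8αβ T cells summed to 720.2 to 837 CPM in KO spleen cells and 18.6 to 24.1 CPM in control IELs, against 74.8 to 90.1 CPM in KO IELp and 130.3 to 142 CPM in control IELp. The 8 markers of NK and innate lymphoid cells, chiefly Kit, summed to 346 to 431 CPM in KO spleen cells and 306 to 345 CPM in control IELs, against 653 to 695 CPM in KO IELp and 616 to 760.3 CPM in control IELp. The part of these cells in the results below was not tested. The sorted proteins differ by design: Cd8a had 838 ± 48.7 CPM in KO spleen cells and 2508 ± 158 CPM in control IELs, against 46.5 ± 3.06 CPM in KO IELp and 18.7 ± 1.36 CPM in control IELp. Cd44, absent from the surface of sorted IELp, had 107 ± 7.55 CPM in KO spleen cells and 38.2 ± 8.58 CPM in control IELs, against 3.17 ± 0.441 CPM in KO IELp and 6.41 ± 0.894 CPM in control IELp. Zbtb7a itself, the gene targeted in KO mice, is checked only as far as counts of the whole transcript go, since the deleted exons are not given here. It had 61.3 ± 2.13 CPM in KO spleen cells and 111 ± 8.91 CPM in control IELs, against 45.5 ± 4.66 CPM in KO IELp and 75.4 ± 6.27 CPM in control IELp.

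NK receptors were mostly higher in CD8αα cells of both organs. Of 29 tested receptors, ligand-binding partners and adaptors, 28 were called higher and 1 lower in the average of the steps, and 22 lay above and 1 below with no overlap. Within the steps 24 were called higher in both and 1 lower in both. List counts here and below stand beside the shares of all tested genes. These were 30.5% called higher, 32.4% lower, 6.81% above, 19.1% below and 6.72% called in opposite directions. The median log2 fold change over the list was 4.91, and 4.69 with its 7 genes that lacked counts in a group set to a floor of 3 counts per group, against -0.01 over all tested genes. Klrd1 encodes CD94, the partner chain of the NKG2 receptors. It had 511, 513 and 508 CPM in KO spleen cells and 924, 895 and 823 CPM in control IELs, against 6.21, 4.76 and 4.85 CPM in KO IELp and 6.89, 6.06 and 9.13 CPM in control IELp. All 6 CD8αα libraries were far above the IELp libraries, and the IELs were the higher of the CD8αα groups. Its log2 fold change was 6.72 ± 0.12 in the KO step and 7.17 ± 0.11 in the control step.

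Klre1, another lectin-like receptor of the same gene cluster, had 121, 122 and 128 CPM in KO spleen cells and 189, 189 and 193 CPM in control IELs, against 0.132, 0.421 and 0.211 CPM in KO IELp and 0.751, 0.118 and 0.516 CPM in control IELp. The 2 organs took nearly the same step, 8.98 ± 0.43 on the log2 scale in the KO step and 8.97 ± 0.35 in the control step, and the 95% interval of the difference was -1.17 to 1.18. Klrk1 encodes NKG2D, which binds stress-induced ligands. It had 260.1, 267 and 297 CPM in KO spleen cells and 102, 99.8 and 29.4 CPM in control IELs, against 0 CPM in all 3 libraries of KO IELp and 0.273, 0 and 0.147 CPM in control IELp. That is 17976 counts over the CD8αα libraries and 6 over the IELp libraries. Klrc1, the inhibitory NKG2A chain, had 130.1 ± 11.6 CPM in KO spleen cells and 9.48 ± 3.78 CPM in control IELs, against 0.11 ± 0.191 CPM in KO IELp and no counts in control IELp. Klrc2, the activating NKG2C chain, had 57.2 ± 13 CPM in KO spleen cells and 2.77 ± 0.353 CPM in control IELs, against 0.088 ± 0.152 CPM in KO IELp and 0.0227 ± 0.0394 CPM in control IELp. Both stood higher in KO spleen cells than in control IELs. Near-identical members of this family can share reads, which the counting may split or lose, so single Klr levels are uncertain.

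Slamf7, a self-binding receptor of cytotoxic cells, had 204 ± 7.96 CPM in KO spleen cells and 173 ± 5.89 CPM in control IELs, against 2.24 ± 0.589 CPM in KO IELp and 2.83 ± 0.254 CPM in control IELp, with log2 fold changes of 6.63 ± 0.14 in the KO step and 6.19 ± 0.14 in the control step. Cd244 (2B4) rose in both steps but further in the gut: it had 112 ± 5.62 CPM in KO spleen cells and 791 ± 43.7 CPM in control IELs, against 17 ± 2.02 CPM in KO IELp and 25.3 ± 1.05 CPM in control IELp. The adaptor Tyrobp (DAP12), through which activating NK receptors signal, had 86.2 ± 4.54 CPM in KO spleen cells and 358 ± 53.9 CPM in control IELs, against 8.9 ± 1.77 CPM in KO IELp and 6.69 ± 0.904 CPM in control IELp, again with the larger step in the control genotype. Klrb1a, a receptor of the NKR-P1 family, was the member that lay below. It had 45.3, 42.3 and 42.7 CPM in KO spleen cells and 67.8, 61.4 and 110.2 CPM in control IELs, against 163, 152 and 161 CPM in KO IELp and 156, 177 and 186 CPM in control IELp, and fell in both steps, by 1.76 ± 0.16 and 0.86 ± 0.15 on the log2 scale. Ncr1, a defining marker of NK cells, stood at 0.436 CPM in KO spleen cells and 0.0362 CPM in control IELs, with no counts in IELp. Klrb1c (NK1.1), another marker of NK cells, was shared and higher: it had 74.7 ± 11.7 CPM in KO spleen cells and 23.1 ± 8.37 CPM in control IELs, against 2.69 ± 0.476 CPM in KO IELp and 7.8 ± 1.82 CPM in control IELp. The summed marker level above instead followed Kit, at 205 CPM in KO spleen cells and 298 CPM in control IELs, against 671 CPM in KO IELp and 692 CPM in control IELp. The part of NK cells in the NK list was not tested. Tyrobp and Klrb1a were chosen after their values were seen, as were Prf1, Bcl11b, Cd22 and the MHC class II genes below.

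**Figure D2:**
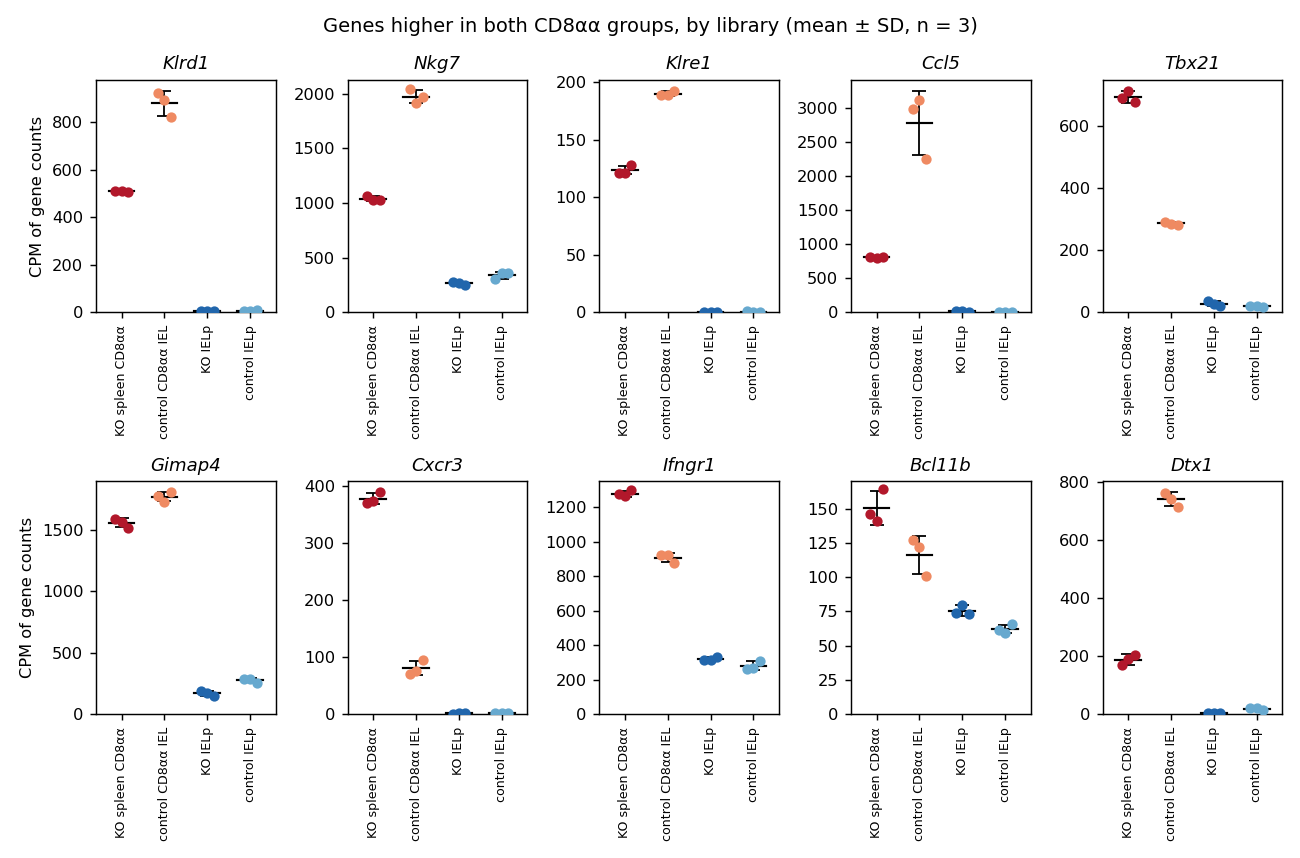
CPM of 10 shared higher genes in the 12 libraries, with 3 points per group, the mean as a line and the SD as bars. For each gene all 6 CD8αα libraries lie above all 6 IELp libraries; Klre1, Gimap4, Ifngr1 and Bcl11b moved by close amounts in both steps, while Cxcr3 and Tbx21 were higher in KO spleen cells and Ccl5 and Dtx1 in control IELs.

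Genes of the cytotoxic granule and of death ligands were higher as well. Of 21 tested, 19 were called higher by edgeR and the other 2 were not called, 10 lay above with no overlap, and the median log2 fold change was 2.28. The size differed between the steps. Gzmb, the serine protease granzyme B, had 45.8, 42.8 and 34 CPM in KO spleen cells and 14979.8, 14532 and 14996 CPM in control IELs, against 2.51, 4.27 and 3.48 CPM in KO IELp and 2.12, 2.23 and 3.98 CPM in control IELp. Control IELs stood far above every other group, and KO spleen cells lay between them and the precursors. The log2 fold change of Gzmb was 3.69 ± 0.18 in the KO step and 12.66 ± 0.20 in the control step, with a difference of -8.97 ± 0.27 (SE). Other granzymes may share reads with it. Prf1, the pore former, had 32.1 ± 1.31 CPM in KO spleen cells and 245 ± 12.5 CPM in control IELs, against 18.7 ± 1.42 CPM in KO IELp and 22.3 ± 2.04 CPM in control IELp. Fasl, the ligand of the death receptor Fas, had 16 ± 1.23 CPM in KO spleen cells and 707 ± 23.6 CPM in control IELs, against 8.41 ± 1.66 CPM in KO IELp and 9.79 ± 1.51 CPM in control IELp. For both, too, the KO step was the smaller one.

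Nkg7, a granule membrane protein needed for degranulation, and Cst7, the inhibitor cystatin F, had closer steps. Nkg7 had 1068, 1031 and 1027 CPM in KO spleen cells and 2040.1, 1913 and 1974 CPM in control IELs, against 277, 269.7 and 253 CPM in KO IELp and 305, 356 and 361 CPM in control IELp. It was already present in the precursors, and the log2 fold changes were 2.08 ± 0.06 and 2.79 ± 0.06 in the KO and control steps. Cst7 had 127 ± 3.78 CPM in KO spleen cells and 367 ± 23.4 CPM in control IELs, against 37 ± 2.99 CPM in KO IELp and 69.1 ± 4.29 CPM in control IELp.

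The promoters of genes in these lists were read from RefSeq windows of build GRCm38.p6, from 250 bases before the start to 50 after it. A window was found for 9963 tested genes. Short motifs of factors known in cytotoxic T cells were searched on both strands, TGTGGTT for RUNX and TCACACC for T-box factors, which can overlap by at most 1 base. RUNX letters were in 18.2% of 22 NK receptor windows and 21.1% of 19 cytotoxic windows, against 3.83% of all tested windows. T-box letters were in 4.55% and 21.1%, against 3.63%. Letters of TCF and LEF transcription factors, CTTTGAA or CTTTGAT, were in 18.2% and 5.26%, against 6.00%. These shares rest on 1 to 4 genes per list. Among 709 windows of shared higher genes 6.49% held RUNX and 3.81% held T-box letters. Windows of Gzmb and Klre1 are printed because they have the smallest adjusted p among shared genes of the 2 lists with a match to either motif. Capitals mark RUNX letters; neither window holds the T-box letters.
Gzmb, chr14:56262285-56262584, minus strand: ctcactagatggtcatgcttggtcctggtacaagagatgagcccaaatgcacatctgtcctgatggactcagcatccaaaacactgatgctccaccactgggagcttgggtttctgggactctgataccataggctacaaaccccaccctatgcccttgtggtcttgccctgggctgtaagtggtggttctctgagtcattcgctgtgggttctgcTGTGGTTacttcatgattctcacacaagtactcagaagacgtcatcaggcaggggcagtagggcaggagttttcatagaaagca
Klre1, chr6:129577963-129578262, plus strand: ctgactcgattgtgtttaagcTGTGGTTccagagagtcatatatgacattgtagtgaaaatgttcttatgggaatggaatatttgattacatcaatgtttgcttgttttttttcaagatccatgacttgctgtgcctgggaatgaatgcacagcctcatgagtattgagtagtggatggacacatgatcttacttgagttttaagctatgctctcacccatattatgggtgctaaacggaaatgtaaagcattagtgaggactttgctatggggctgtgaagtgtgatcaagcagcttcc

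Chemokines and homing receptors separated the stages too. Among 16 tested secreted factors 9 were called higher and 5 lower, with 6 above and 1 below without overlap. Of all tested genes 30.5% were called higher and 32.4% lower, and 6.81% lay above and 19.1% below. Chemokines that attract effector T cells and macrophages rose together: Ccl5 had 818, 794 and 806 CPM in KO spleen cells and 2977, 3113 and 2241 CPM in control IELs, against 13.5, 15.5 and 9.02 CPM in KO IELp and 11.7, 11.6 and 6.26 CPM in control IELp, a 69.1-fold change in the KO step and 332-fold in the control step. Ccl3 had 30.1 ± 1.64 CPM in KO spleen cells and 46.8 ± 2.65 CPM in control IELs, against 0.239 ± 0.0266 CPM in KO IELp and 0.729 ± 0.264 CPM in control IELp. Ccl4 had 42.7 ± 5.96 CPM in KO spleen cells and 124 ± 13.3 CPM in control IELs, against 0.18 ± 0.106 CPM in KO IELp and 0.308 ± 0.300 CPM in control IELp. Both were far above the precursors in either organ. The difference of their steps had 95% intervals of -0.06 to 1.68 and -2.44 to 0.80. Ifng, the macrophage-activating interferon, was at a low level of 6.54 ± 0.453 CPM in KO spleen cells and 12.3 ± 0.605 CPM in control IELs, against 0.274 ± 0.239 CPM in KO IELp and 0.233 ± 0.144 CPM in control IELp.

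Of 34 tested homing and trafficking genes 19 were called higher and 12 lower, and 11 lay above and 3 below. The shares of all tested genes were 30.5% higher, 32.4% lower, 6.81% above and 19.1% below. Cxcr3, a receptor for interferon-induced chemokines, had 377 ± 9.82 CPM in KO spleen cells and 80.5 ± 12.8 CPM in control IELs, against 1.02 ± 0.138 CPM in KO IELp and 1.54 ± 0.596 CPM in control IELp. Gpr18, a lymphocyte receptor, had 150.2 ± 5.99 CPM in KO spleen cells and 453 ± 39.8 CPM in control IELs, against 11 ± 1.11 CPM in KO IELp and 16.7 ± 1.33 CPM in control IELp. Both receptors separated the stages in both organs, Cxcr3 with the larger step in KO and Gpr18 in control cells. Integrin genes that bind collagen were nearly absent from IELp. Itga2 had 23.2 ± 1.02 CPM in KO spleen cells and 16.7 ± 3.63 CPM in control IELs, against 0.0597 ± 0.00665 CPM in KO IELp and 0.0896 ± 0.0412 CPM in control IELp. Itga1 had 3.05 ± 1.58 CPM in KO spleen cells and 748 ± 83.6 CPM in control IELs, against no counts in KO IELp and no counts in control IELp, with nearly all of its counts in control IELs and none in IELp. Itgax (CD11c) had 19.4 ± 0.846 CPM in KO spleen cells and 305 ± 66 CPM in control IELs, against 0.203 ± 0.112 CPM in KO IELp and 0.425 ± 0.305 CPM in control IELp. Rgs1, which dampens chemokine receptor signals, had 35.6 ± 3.77 CPM in KO spleen cells and 6413 ± 183 CPM in control IELs, against 19.6 ± 3.04 CPM in KO IELp and 17 ± 1.19 CPM in control IELp. Its log2 fold change was 0.96 ± 0.09 in the KO step and 8.81 ± 0.09 in the control step.

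Ccr10 and Ccr4, receptors for skin-homing chemokines, were among the 3 members that lay below. Ccr10 had 1.59 ± 0.947 CPM in KO spleen cells and 0.0724 ± 0.125 CPM in control IELs, against 30.1 ± 5.14 CPM in KO IELp and 35.8 ± 7.03 CPM in control IELp. Ccr4 had 0.607 ± 0.534 CPM in KO spleen cells and no counts in control IELs, against 10.5 ± 1.54 CPM in KO IELp and 10.2 ± 2.79 CPM in control IELp. The same list held 12 genes called in opposite directions by the 2 steps, a class that made up 6.72% of all tested genes. S1pr1, the receptor for the lipid that draws T cells out of tissues, had 385 ± 2.53 CPM in KO spleen cells and 2.27 ± 0.435 CPM in control IELs, against 237 ± 11.3 CPM in KO IELp and 276 ± 16.1 CPM in control IELp. Itgae, the CD103 chain that binds epithelial E-cadherin, had 48.1 ± 4.12 CPM in KO spleen cells and 3775 ± 81.1 CPM in control IELs, against 63.3 ± 9.97 CPM in KO IELp and 48.9 ± 3.85 CPM in control IELp. Their difference between steps was 7.49 ± 0.14 and -6.81 ± 0.13 (log2, SE), and they are not among the separated genes.

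Transcription factors divided by cell state. Among 25 factors of effector and memory cells 18 were called higher and 3 lower, with 8 above and none below. In this list 6 were called in opposite directions, against 6.72% of all tested genes. Tbx21 encodes T-bet, a driver of the cytotoxic and interferon program. It had 691, 715 and 677 CPM in KO spleen cells and 293, 285 and 281 CPM in control IELs, against 35.4, 27 and 19 CPM in KO IELp and 20.3, 21.6 and 18 CPM in control IELp. KO spleen cells were the highest group, and the KO step exceeded the control step by 0.71 ± 0.20 on the log2 scale. Stat4, which relays interleukin-12 signals, had 235 ± 23.7 CPM in KO spleen cells and 169.9 ± 3.5 CPM in control IELs, against 35.7 ± 2.08 CPM in KO IELp and 45.1 ± 4.34 CPM in control IELp. Irf8, an interferon regulatory factor, had 151 ± 9.23 CPM in KO spleen cells and 249 ± 21.3 CPM in control IELs, against 29.8 ± 3.9 CPM in KO IELp and 38.4 ± 1.96 CPM in control IELp. Both rose in each step. The repressor Hic1 had 20.8 ± 0.685 CPM in KO spleen cells and 236 ± 23.4 CPM in control IELs, against 4.62 ± 0.668 CPM in KO IELp and 8.58 ± 1.89 CPM in control IELp. The zinc finger factor Klf6 had 120.4 ± 11.6 CPM in KO spleen cells and 620.4 ± 48.1 CPM in control IELs, against 77.3 ± 2.14 CPM in KO IELp and 74.9 ± 2.93 CPM in control IELp. These last 2 rose further in the control step. Eomes, the relative of T-bet, went in opposite directions: it had 92.2 ± 2.14 CPM in KO spleen cells and 1.04 ± 0.00801 CPM in control IELs, against 4.00 ± 0.77 CPM in KO IELp and 5.32 ± 0.899 CPM in control IELp. Litaf did so the other way round, with 54 ± 3.13 CPM in KO spleen cells and 674 ± 3.65 CPM in control IELs, against 94.9 ± 2.2 CPM in KO IELp and 117 ± 2.9 CPM in control IELp.

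Among 28 factors of naive and early T cells 7 were called higher and 16 lower, with 1 above and 11 below without overlap. In this list 7 were called in opposite directions, against 6.72% of all tested genes. Sox4, a factor of thymocytes, had 70.9, 71.4 and 83.7 CPM in KO spleen cells and 1.6, 1.93 and 2.01 CPM in control IELs, against 582, 509 and 519 CPM in KO IELp and 534, 459 and 579 CPM in control IELp. KO spleen cells kept an intermediate level and control IELs were near 0. Tcf7 and Lef1, partners of Wnt signals that maintain naive T cells, lay lower in every CD8αα library than in every IELp library, but the KO step was small. Lef1 had 426, 439 and 458 CPM in KO spleen cells and 11.2, 10.9 and 14.1 CPM in control IELs, against 546, 538 and 528 CPM in KO IELp and 675, 656 and 672 CPM in control IELp. Its log2 fold change was -0.17 ± 0.06 in the KO step (adjusted p = 0.0383, edgeR) and -5.53 ± 0.08 in the control step. Tcf7 had 1255 ± 25.8 CPM in KO spleen cells and 180.4 ± 6.99 CPM in control IELs, against 1677 ± 34.2 CPM in KO IELp and 1645 ± 53.4 CPM in control IELp. Klf2, which drives exit genes such as S1pr1, also lay below without overlap, at 264 ± 2.87 CPM in KO spleen cells and 5.51 ± 0.589 CPM in control IELs, against 302 ± 24.7 CPM in KO IELp and 374 ± 25.7 CPM in control IELp, though edgeR did not call its KO step (adjusted p = 0.375), and its libraries overlapped on the TMM scale. Bcl11b, a T cell identity factor, was the single member above on CPM: it had 146, 141 and 165 CPM in KO spleen cells and 127, 122 and 100.7 CPM in control IELs, against 74.1, 80.01 and 72.8 CPM in KO IELp and 61.2, 59.4 and 65.5 CPM in control IELp. The 2 steps were 1.10 ± 0.09 and 1.16 ± 0.09, and the interval of their difference was -0.32 to 0.21.

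Cytokine receptors mostly rose. Of 31 tested genes 19 were called higher and 7 lower, 11 above and 3 below without overlap. The 2 chains of the interferon gamma receptor moved apart. Ifngr1, the ligand-binding chain, had 1274, 1263 and 1297 CPM in KO spleen cells and 919.98, 924 and 878 CPM in control IELs, against 315, 312 and 329 CPM in KO IELp and 259.6, 269 and 309 CPM in control IELp. Ifngr2, the signalling chain, had 1.85, 1.8 and 3.28 CPM in KO spleen cells and 0.492, 1.03 and 2.01 CPM in control IELs, against 26.9, 32.9 and 32.2 CPM in KO IELp and 43, 49.3 and 50.7 CPM in control IELp. Ifngr1 rose by 2.11 ± 0.06 in the KO step and 1.95 ± 0.06 in the control step on the log2 scale, while Ifngr2 fell by 3.66 ± 0.26 and 5.04 ± 0.31. No library of one stage reached the range of the other for either gene. Il12rb2, the inducible interleukin-12 receptor chain, had 120.3 ± 5.07 CPM in KO spleen cells and 141 ± 13.5 CPM in control IELs, against 16.3 ± 1.67 CPM in KO IELp and 17.5 ± 1.36 CPM in control IELp, and the interval of its difference of steps was -0.56 to 0.03. Smaller rises were seen for the interleukin-21 receptor Il21r, which had 491 ± 9.8 CPM in KO spleen cells and 717 ± 22.9 CPM in control IELs, against 241 ± 3.23 CPM in KO IELp and 301 ± 6.76 CPM in control IELp. The kinase Jak3 had 288 ± 12.3 CPM in KO spleen cells and 686 ± 42.7 CPM in control IELs, against 169.6 ± 12.7 CPM in KO IELp and 219 ± 12.4 CPM in control IELp. For both the control step was the larger. Il7r, the interleukin-7 receptor of resting T cells, moved in opposite directions, with 74 ± 5.29 CPM in KO spleen cells and 6.85 ± 2.05 CPM in control IELs, against 57.7 ± 6.67 CPM in KO IELp and 63.3 ± 6.29 CPM in control IELp.

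Genes that strong TCR signals induce were mainly lower in CD8αα cells. Of 32 tested members 18 were called lower and 9 higher, and 18 lay below and 4 above, with 14 below and 4 above on the TMM scale. Within the steps 15 were called lower in both, 5 higher in both and 4 in opposite directions. Of all tested genes 12.8% were lower in both, 12.2% higher in both and 6.72% opposite. The members described next fell in both steps. The immediate-early factor Egr1 had 76.4, 83.9 and 78.5 CPM in KO spleen cells and 49.4, 46.3 and 54.3 CPM in control IELs, against 284, 289 and 253 CPM in KO IELp and 303, 309 and 284 CPM in control IELp. The highest CD8αα library stood at 83.9 CPM and the lowest IELp library at 253 CPM. Egr2, a relative of Egr1, had 31.1 ± 1.02 CPM in KO spleen cells and 7.75 ± 0.352 CPM in control IELs, against 147 ± 9.62 CPM in KO IELp and 163 ± 7.43 CPM in control IELp. The nuclear receptor Nr4a1 had 139 ± 5.27 CPM in KO spleen cells and 69.3 ± 4.43 CPM in control IELs, against 544 ± 39.2 CPM in KO IELp and 483 ± 37.3 CPM in control IELp. Both fell in each step, and further in the control step. Spry1, an inhibitor of the RAS pathway, was close to absent after the step: it had 0.752, 1.27 and 0.819 CPM in KO spleen cells and 0.43, 0.129 and 1.09 CPM in control IELs, against 53.6, 46.8 and 53.5 CPM in KO IELp and 66.5, 66.9 and 68.9 CPM in control IELp. Its steps were -5.62 ± 0.30 and -6.60 ± 0.36 on the log2 scale, with an interval of the difference of -0.02 to 1.98. The costimulator Tnfrsf9 (4-1BB) had 107 ± 0.979 CPM in KO spleen cells and 149 ± 9.82 CPM in control IELs, against 453 ± 3.97 CPM in KO IELp and 497 ± 38.8 CPM in control IELp. IELp had been sorted for high PD-1 and CD5, proteins that TCR signals raise, so the level of this list in IELp is not independent of the sort.

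Proximal TCR signalling genes were higher on balance, 19 called higher and 10 lower of 33, with 10 above and 6 below. Of all tested genes 30.5% were called higher and 32.4% lower, and 6.81% lay above and 19.1% below. These shares, and 6.72% for opposite calls, also stand beside the receptor and BCL2 counts of this paragraph. The kinase Txk had 318 ± 6.18 CPM in KO spleen cells and 473 ± 52.8 CPM in control IELs, against 72.6 ± 5.59 CPM in KO IELp and 93.9 ± 12 CPM in control IELp. The phosphatase Ptpn22 had 815 ± 15.7 CPM in KO spleen cells and 1627 ± 100.7 CPM in control IELs, against 596 ± 10.7 CPM in KO IELp and 539.7 ± 16.3 CPM in control IELp. The adaptor Sh2d2a had 334 ± 3.16 CPM in KO spleen cells and 827 ± 27.8 CPM in control IELs, against 266 ± 11.5 CPM in KO IELp and 256 ± 6.99 CPM in control IELp. All 3 rose in both steps. The costimulatory receptor Cd28 had 105, 102 and 103 CPM in KO spleen cells and 0, 0.708 and 0.0543 CPM in control IELs, against 202, 199.9 and 178 CPM in KO IELp and 255, 246 and 291 CPM in control IELp. KO spleen cells held less than any IELp library, and control IELs next to none. Among 26 costimulatory and inhibitory receptors 12 were called higher and 12 lower, with 4 above and 7 below without overlap, and 9 were called in opposite directions. Vsir (VISTA), an inhibitory one, had 248 ± 12.9 CPM in KO spleen cells and 396 ± 11.5 CPM in control IELs, against 68.1 ± 3.07 CPM in KO IELp and 94.6 ± 7.14 CPM in control IELp. Of 16 tested genes of the BCL2 family 7 were called higher and 4 lower. The death activator Bmf fell in both steps, with 10.4 ± 3.83 CPM in KO spleen cells and 7.74 ± 2.04 CPM in control IELs, against 27.4 ± 5.87 CPM in KO IELp and 22.8 ± 0.878 CPM in control IELp. Bcl2l11 (BIM) had 91.4 ± 4.65 CPM in KO spleen cells and 93.5 ± 11.3 CPM in control IELs, against 125 ± 11.9 CPM in KO IELp and 119.9 ± 15 CPM in control IELp, without overlap on CPM but with overlap on the TMM scale, and edgeR did not call its control step (adjusted p = 0.398).

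Genes of immature thymocytes were mostly lower. Of 18 recombination and double-positive thymocyte genes 13 were called lower and 3 higher, and 9 lay below. Dntt, the template-free DNA polymerase of receptor rearrangement, had 0, 0 and 0.149 CPM in KO spleen cells and 0 CPM in all 3 libraries of control IELs, against 7.79, 10.7 and 13.2 CPM in KO IELp and 9.69, 10.9 and 16.1 CPM in control IELp. Over all libraries that is 2 counts in CD8αα cells and 1091 in IELp, a ratio of 583 (exact 95% counting interval 161 to 4817). Arpp21, a thymocyte phosphoprotein gene, had 0.693 ± 0.357 CPM in KO spleen cells and no counts in control IELs, against 9.45 ± 1.22 CPM in KO IELp and 7.92 ± 1.56 CPM in control IELp. Cd24a, the heat-stable antigen of immature thymocytes, had 6.72 ± 0.654 CPM in KO spleen cells and 0.204 ± 0.254 CPM in control IELs, against 66.7 ± 3.55 CPM in KO IELp and 64.3 ± 1.64 CPM in control IELp. KO spleen cells kept more of both than control IELs did. The lipid-presenting molecule Cd1d1 had 54.7 ± 2.09 CPM in KO spleen cells and 62.4 ± 2.65 CPM in control IELs, against 109 ± 5.64 CPM in KO IELp and 109 ± 3.47 CPM in control IELp. Of 23 genes that late thymocytes gain, 16 were called higher in the average and 6 lower, with 11 above and 2 below without overlap. Within the steps 12 were called higher in both, 2 lower in both and 7 in opposite directions. The GTPase genes of the GIMAP family, which support T cell survival, belong to this list. Gimap4 had 1592, 1567 and 1515 CPM in KO spleen cells and 1778, 1728 and 1807 CPM in control IELs, against 185, 172 and 149.8 CPM in KO IELp and 285, 285 and 256 CPM in control IELp. Gimap3 had 1965 ± 79.6 CPM in KO spleen cells and 2026 ± 108 CPM in control IELs, against 484 ± 8.71 CPM in KO IELp and 563 ± 54.4 CPM in control IELp with an interval of the difference of steps of -0.16 to 0.22. Gimap7 had 361 ± 6.99 CPM in KO spleen cells and 541 ± 9.96 CPM in control IELs, against 69.7 ± 2.95 CPM in KO IELp and 56.6 ± 12.1 CPM in control IELp. These genes were already expressed in the precursors. Ly6e had 721 ± 9.6 CPM in KO spleen cells and 669.8 ± 43.2 CPM in control IELs, against 218 ± 0.388 CPM in KO IELp and 341 ± 12.3 CPM in control IELp.

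Interferon response genes were split between the steps. Of 33 tested, 21 were called higher and 5 lower in the average, and 9 lay above and none below. In the 2 steps 13 were called in opposite directions, against 6.72% of all tested genes. The RNA sensor Ddx58 (RIG-I) had 250.3 ± 17.3 CPM in KO spleen cells and 278 ± 4.46 CPM in control IELs, against 126 ± 4.33 CPM in KO IELp and 143 ± 9.8 CPM in control IELp, and the 95% interval of its difference of steps was -0.31 to 0.09. Gbp4, a guanylate-binding GTPase with close paralogs, had 232 ± 2.51 CPM in KO spleen cells and 335 ± 1.64 CPM in control IELs, against 156 ± 2.86 CPM in KO IELp and 148 ± 16 CPM in control IELp. Rtp4 had 81.3 ± 9.44 CPM in KO spleen cells and 27.1 ± 1.57 CPM in control IELs, against 32.3 ± 3.04 CPM in KO IELp and 47 ± 4.17 CPM in control IELp. Ifi27l2a had 22.1 ± 0.953 CPM in KO spleen cells and 9.45 ± 1.57 CPM in control IELs, against 17.2 ± 1.24 CPM in KO IELp and 43.2 ± 5.04 CPM in control IELp. Both rose in the KO step and fell in the control step.

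Cell cycle genes were lower throughout. Each of the 40 tested proliferation genes was called lower by edgeR, 38 lay below without overlap (37 on the TMM scale) and 37 were shared, with a median log2 fold change of -1.67, -1.16 in the KO step and -2.18 in the control step. Mcm6, a subunit of the replicative helicase, had 559.7, 537 and 507 CPM in KO spleen cells and 294, 310.1 and 317 CPM in control IELs, against 1110.3, 1154 and 1074 CPM in KO IELp and 1164, 1116 and 1188 CPM in control IELp. The order of groups was the same for Top2a, the topoisomerase of dividing cells, which had 91.1, 95.7 and 77.7 CPM in KO spleen cells and 38, 41.1 and 41.1 CPM in control IELs, against 175, 195 and 203 CPM in KO IELp and 235, 251 and 254 CPM in control IELp. Control IELs were lowest, KO spleen cells next, and both IELp groups highest. The helicase subunit Mcm7 had 162 ± 11.2 CPM in KO spleen cells and 77.7 ± 6.79 CPM in control IELs, against 364 ± 2.59 CPM in KO IELp and 378 ± 19.4 CPM in control IELp. The spindle checkpoint gene Bub1b had 30.9 ± 3.45 CPM in KO spleen cells and 14.8 ± 1.85 CPM in control IELs, against 111 ± 5.19 CPM in KO IELp and 144 ± 9.58 CPM in control IELp.

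Motifs known from cell cycle promoters were searched in the same way. The E2F letters TTGGCGC or TTCCCGC were in 33.3% of 33 proliferation windows, against 12.2% of all tested windows. The NF-Y letters CCAAT were in 78.8%, against 38.4%, and the letters TTTGAA of the cell cycle homology region in 45.5%, against 12.2%. All 1845 shared lower genes, of which 1291 had a window, were closer to the background: 14.6% held E2F, 41.8% NF-Y and 15.5% TTTGAA letters. TTTGAA was also in 40.9% of the 22 windows of NK receptor genes, a list mostly called higher. Windows of Mcm6 and Mcm7 are printed because, of the 9 proliferation genes with both E2F and NF-Y letters, these shared genes have the smallest adjusted p. Capitals mark E2F and NF-Y letters on either strand, which can overlap by 4 bases.
Mcm6, chr1:128359656-128359955, minus strand: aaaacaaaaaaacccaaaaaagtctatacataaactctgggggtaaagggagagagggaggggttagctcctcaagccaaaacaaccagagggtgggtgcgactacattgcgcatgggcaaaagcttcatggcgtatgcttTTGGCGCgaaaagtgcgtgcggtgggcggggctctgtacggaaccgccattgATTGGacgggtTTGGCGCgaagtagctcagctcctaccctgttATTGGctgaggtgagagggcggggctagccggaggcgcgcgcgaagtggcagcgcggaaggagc
Mcm7, chr5:138171834-138172133, minus strand: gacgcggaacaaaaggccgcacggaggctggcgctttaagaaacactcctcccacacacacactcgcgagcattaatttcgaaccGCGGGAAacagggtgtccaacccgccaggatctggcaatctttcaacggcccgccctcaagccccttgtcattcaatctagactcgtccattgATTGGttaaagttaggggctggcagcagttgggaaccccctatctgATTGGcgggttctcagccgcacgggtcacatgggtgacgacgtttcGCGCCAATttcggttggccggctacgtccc

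**Figure D3:**
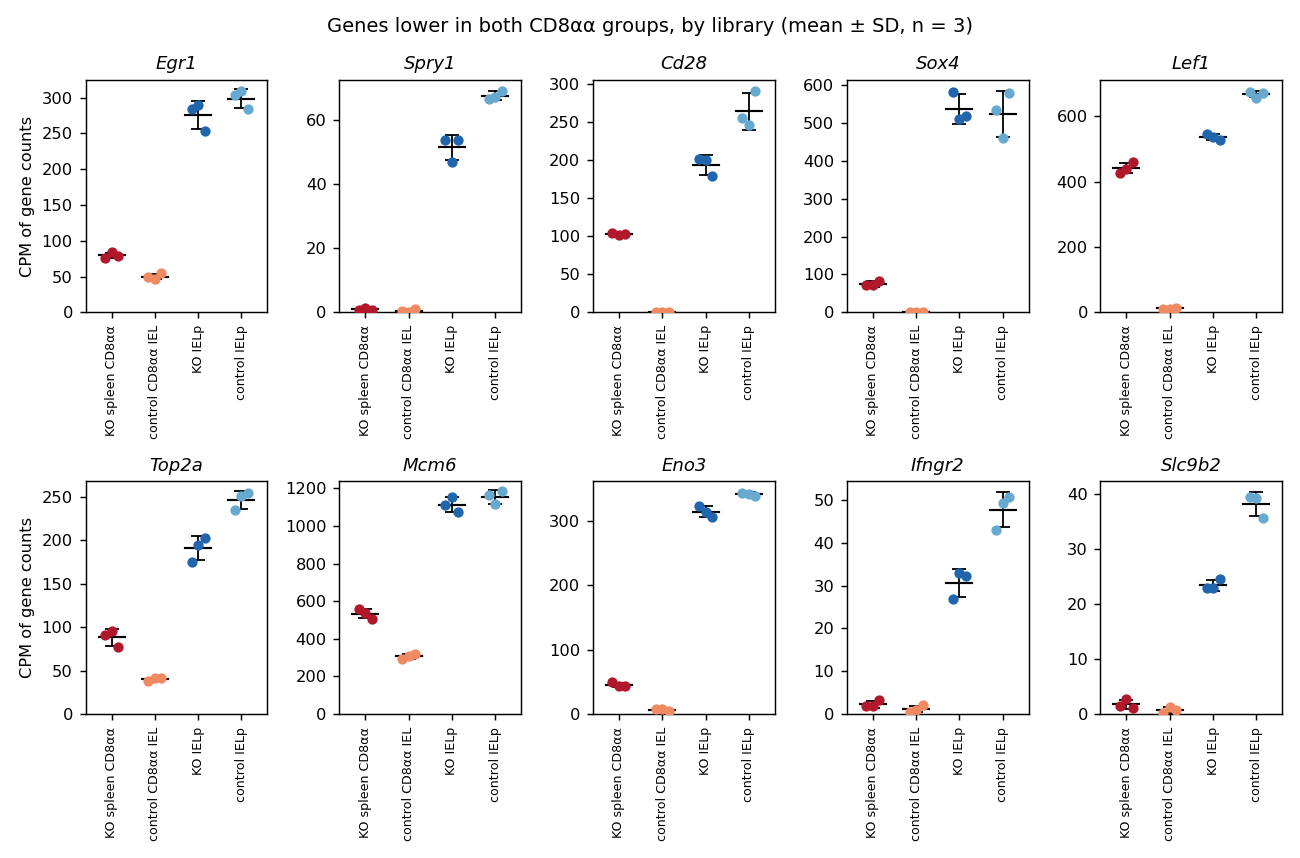
CPM of 10 shared lower genes in the 12 libraries, with 3 points per group, the mean as a line and the SD as bars. All 6 CD8αα libraries lie below all 6 IELp libraries for each gene; KO spleen cells kept intermediate levels of Lef1, Cd28, Top2a and Mcm6, and both CD8αα groups were near 0 for Spry1, Ifngr2 and Slc9b2.

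Growth and energy genes were mostly lower in the average of the steps, by smaller amounts. Of 29 nucleolar and MYC-linked genes 27 were called lower and the other 2 were not called, with 14 below without overlap and 11 on the TMM scale. Within the steps 11 were called lower in both and 1 in opposite directions, against 12.8% and 6.72% of all tested genes. Of the list 9 were shared and lower. Its median log2 fold change was -0.14 in the KO step and -0.92 in the control step. Odc1, the first enzyme of polyamine synthesis, had 65.5 ± 5.23 CPM in KO spleen cells and 45 ± 1.12 CPM in control IELs, against 97.7 ± 6.63 CPM in KO IELp and 124 ± 8.11 CPM in control IELp. The translation factor Eif5a had 904 ± 40.04 CPM in KO spleen cells and 459 ± 30.9 CPM in control IELs, against 1193 ± 28.2 CPM in KO IELp and 1246 ± 37.3 CPM in control IELp. The GTPase Ran, which drives nuclear transport, had 186 ± 8.05 CPM in KO spleen cells and 107 ± 2.45 CPM in control IELs, against 229 ± 3.25 CPM in KO IELp and 249 ± 5.54 CPM in control IELp. For each the KO step was the smaller one. Among 22 glycolysis genes 15 were called lower and 5 higher, with 12 below and 4 above. The list median was -0.51 on the log2 scale, and 4 genes were shared and higher. Those described next had the smallest adjusted p among genes without overlap, and all fell. Eno3, an enolase, had 49.1, 43.6 and 43.8 CPM in KO spleen cells and 7.31, 7.79 and 5.49 CPM in control IELs, against 324, 313 and 306 CPM in KO IELp and 344, 342 and 339 CPM in control IELp. It fell in both steps, further in the control step. The lactate dehydrogenase Ldhb had 15.2 ± 1.24 CPM in KO spleen cells and 10.1 ± 0.729 CPM in control IELs, against 96 ± 4.14 CPM in KO IELp and 112 ± 2.28 CPM in control IELp. The isomerase Tpi1 had 206 ± 9.47 CPM in KO spleen cells and 139 ± 6.89 CPM in control IELs, against 419.8 ± 9.59 CPM in KO IELp and 415 ± 12.9 CPM in control IELp. The lactate exporter Slc16a3 had 7.8 ± 0.414 CPM in KO spleen cells and 11.8 ± 0.834 CPM in control IELs, against 38.9 ± 2.47 CPM in KO IELp and 33.8 ± 1.23 CPM in control IELp, with the larger step in the KO genotype. Of 34 respiration genes 23 were called lower and 2 higher, and 21 lay below on CPM but 11 on the TMM scale. Within the steps 8 were called lower in both and 1 higher in both. The list median was -0.10 in the KO step and -0.34 in the control step. The ATP synthase subunit Atp5a1 had 763 ± 12.8 CPM in KO spleen cells and 494 ± 14.5 CPM in control IELs, against 916 ± 41.3 CPM in KO IELp and 910.2 ± 29 CPM in control IELp. The cytochrome oxidase subunit Cox7a2 had 79.6 ± 1.82 CPM in KO spleen cells and 49.1 ± 4.59 CPM in control IELs, against 121 ± 2.43 CPM in KO IELp and 130.3 ± 21.7 CPM in control IELp. For cholesterol and fatty acid synthesis 18 of 22 genes were called higher in the average, yet 1 lay above and 1 below without overlap. Hmgcs1, an early enzyme of sterol synthesis, had 87.7 ± 0.874 CPM in KO spleen cells and 314 ± 29.2 CPM in control IELs, against 123 ± 8.3 CPM in KO IELp and 101.2 ± 3.82 CPM in control IELp, opposite between steps. The later enzyme Msmo1 lay above with 27.7 ± 0.551 CPM in KO spleen cells and 159 ± 26.9 CPM in control IELs, against 23.1 ± 1.01 CPM in KO IELp and 24.9 ± 0.494 CPM in control IELp. The desaturase Scd2 lay below: it had 139, 123 and 131 CPM in KO spleen cells and 109, 124 and 105 CPM in control IELs, against 494, 507 and 498 CPM in KO IELp and 497, 496 and 468 CPM in control IELp. The 95% interval of its difference of steps was -0.15 to 0.23.

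Notch receptors and targets made up a small list of 10, with 7 called higher and 2 lower, and 4 above. Dtx1, a Notch target, had 168, 189.6 and 205 CPM in KO spleen cells and 763, 742 and 716 CPM in control IELs, against 4.88, 3.31 and 5.12 CPM in KO IELp and 19.4, 20.7 and 12.4 CPM in control IELp. KO IELp had the lowest level and control IELs the highest, but the steps from their own precursors were close, at 5.51 ± 0.18 and 5.64 ± 0.13 with an interval of the difference of -0.61 to 0.34. The receptor Notch1 had 92 ± 17.7 CPM in KO spleen cells and 72.7 ± 22.8 CPM in control IELs, against 30.3 ± 2.85 CPM in KO IELp and 41.5 ± 4.8 CPM in control IELp. The target Heyl had 47.7 ± 3.47 CPM in KO spleen cells and 218 ± 22.1 CPM in control IELs, against 34.5 ± 1.5 CPM in KO IELp and 15.8 ± 1.67 CPM in control IELp.

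**Figure D4:**
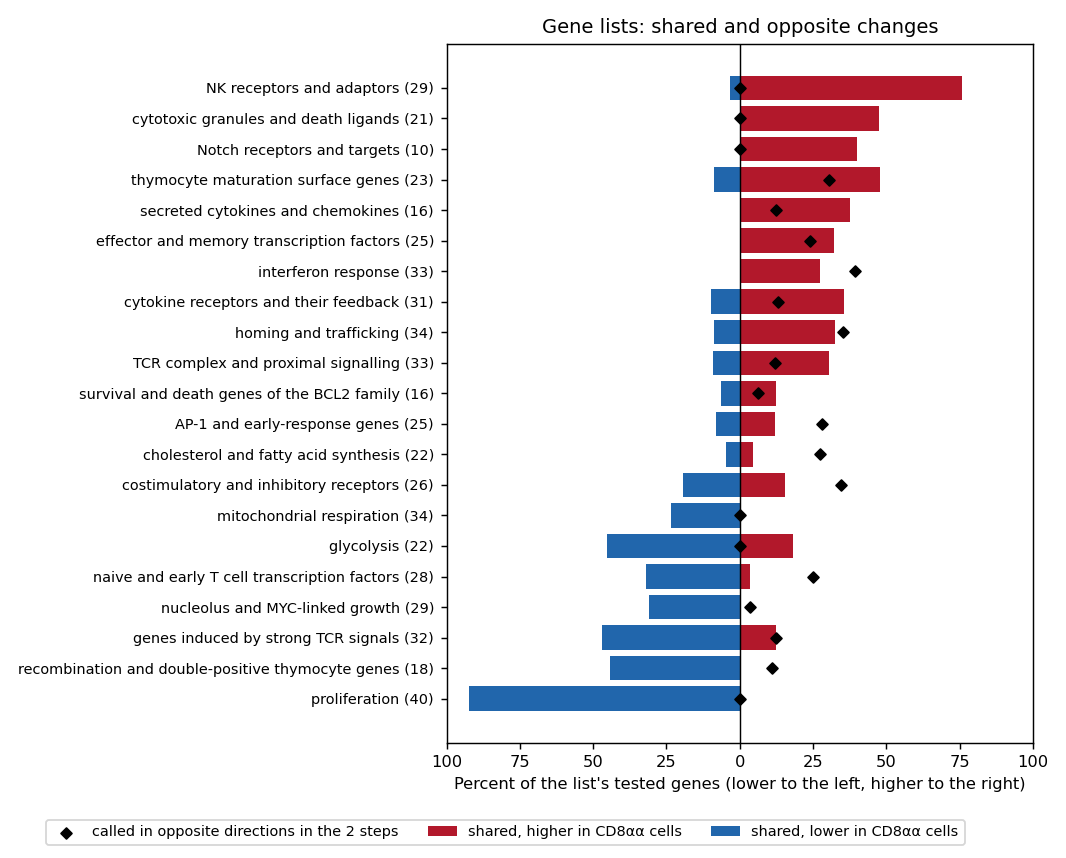
For each of 21 gene lists (number of tested genes in parentheses), red bars to the right give the percent of genes shared and higher in CD8αα cells and blue bars to the left the percent shared and lower. Black diamonds give the percent called in opposite directions by the 2 steps. Proliferation and NK receptor lists were nearly one-sided with no opposite calls, while the interferon list had 13 genes called in opposite directions and 9 shared.

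The median log2 fold change in the average of the steps was -0.01 over all tested genes. After the NK and cytotoxic lists came secreted cytokines and chemokines with a median of 2.03, early-response genes of the AP-1 group with 1.36 and effector transcription factors with 1.13. Of the 25 tested AP-1 and early-response genes 17 were called higher and 5 lower, 3 lay above and 3 below, and 7 were called in opposite directions. Medians were 1.12 for Notch genes, 1.06 for maturation genes, 1.04 for homing genes and 0.97 for cytokine receptors. They were 0.90 for cholesterol genes, 0.61 for interferon genes, 0.40 for proximal TCR signalling and 0.07 for the BCL2 family. Below 0 were costimulatory and inhibitory receptors with -0.14, respiration with -0.22, naive T cell factors with -0.47 and glycolysis with -0.51. Growth genes had -0.56, genes induced by strong TCR signals -0.62 and recombination genes -1.91. List medians differed between the steps. In the KO step and then the control step, the medians were for AP-1 genes -0.29 and 2.31, for cholesterol genes 0.02 and 1.88, for effector factors 0.76 and 1.51 and for NK receptors 6.35 and 3.98. They were for interferon genes 1.17 and 0.15, for maturation genes 1.71 and 0.38 and for homing genes 1.04 and 0.21. For AP-1 genes, costimulatory receptors (-0.07 and 0.54) and the BCL2 family (-0.03 and 0.28) the sign itself differed. Setting genes without counts in a group to their floor changed the median of the NK list only among these 21 lists, in the average of the steps. The medians of the single steps were taken without the floor. In the NK list 7 of 29 genes lacked counts in a group, so its step medians are uncertain.

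Some of the largest separations lay outside the lists. Soat2, which esterifies cholesterol, had 8.15 ± 0.295 CPM in KO spleen cells and 129 ± 6.67 CPM in control IELs, against no counts in KO IELp and 0.182 ± 0.315 CPM in control IELp. The actin-binding protein Gas7 had 17.7 ± 2.57 CPM in KO spleen cells and 7.67 ± 1.2 CPM in control IELs, against no counts in KO IELp and 0.0227 ± 0.0394 CPM in control IELp. That is 1319 counts over the CD8αα libraries against 1 over the IELp libraries, a ratio of 1235 (exact 95% counting interval 221 to 48816). Pik3ap1, an adaptor for PI3 kinase, had 42.6, 41 and 41.2 CPM in KO spleen cells and 257, 256 and 254 CPM in control IELs, against 0.33, 0.241 and 0.316 CPM in KO IELp and 0.614, 0.647 and 0.368 CPM in control IELp. Both CD8αα groups were clear of the precursors, which had under 1 CPM. The inhibitory receptor Lilrb4a had 4.12 ± 1.07 CPM in KO spleen cells and 47.7 ± 9.44 CPM in control IELs, against 0.0352 ± 0.0609 CPM in KO IELp and 0.0784 ± 0.136 CPM in control IELp. On the lower side Gsta4, a glutathione transferase, had 11.8, 7.89 and 8.41 CPM in KO spleen cells and 0.369, 0.322 and 0.272 CPM in control IELs, against 167, 165 and 172 CPM in KO IELp and 171, 194 and 179.9 CPM in control IELp. Slc27a2, a long-chain acyl-CoA synthetase, had 0.586 ± 0.512 CPM in KO spleen cells and 0.598 ± 1.04 CPM in control IELs, against 29.6 ± 2.07 CPM in KO IELp and 30.8 ± 0.732 CPM in control IELp with steps of -5.48 ± 0.68 and -5.30 ± 0.67. Ptger3, a prostaglandin E2 receptor, had 0.389 ± 0.511 CPM in KO spleen cells and 0.0362 ± 0.0627 CPM in control IELs, against 12.5 ± 0.994 CPM in KO IELp and 12.4 ± 0.703 CPM in control IELp. Slc27a2 and Ptger3 were close to absent from both CD8αα groups. The sodium-proton exchanger Slc9b2 had 1.76 ± 0.874 CPM in KO spleen cells and 0.783 ± 0.521 CPM in control IELs, against 23.4 ± 0.948 CPM in KO IELp and 38.1 ± 2.18 CPM in control IELp. The receptor-like gene Ldlrad3 had 1.63 ± 1.23 CPM in KO spleen cells and 0.0214 ± 0.0371 CPM in control IELs, against 29.4 ± 0.285 CPM in KO IELp and 28.2 ± 4.92 CPM in control IELp. Pnmt, the enzyme that makes adrenaline, was lower in both steps although the precursors differed, with 0.411 ± 0.23 CPM in KO spleen cells and no counts in control IELs, against 17.7 ± 3.25 CPM in KO IELp and 2.69 ± 0.585 CPM in control IELp.

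Shared genes sat side by side on several chromosomes. Among 13695 tested genes with a RefSeq position, 28 runs of at least 3 neighbouring tested genes were all shared higher and 47 all shared lower; no chance rate was computed, and families can share reads. The longest was the GIMAP cluster with its neighbour AI854703 on chromosome 6 (48628167 to 48743795 in GRCm38.p6), with 7 genes and log2 fold changes from 0.67 to 3.13. On the same chromosome Klre1, Klrd1 and Klrk1 (129559365 to 129623903) were followed by Klrc2, Klrc1, Klri1 and Klri2 (129649602 to 129740484). Chromosome 11 held Heatr9, Ccl5, Ccl3 and Ccl4 (83511679 to 83664683), chromosome 3 held Gbp5, Gbp7, Gbp3 and Gbp2 (142496934 to 142638008) and chromosome 17 H2-Q4 to H2-Q7 (35379617 to 35443773).

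One run was of MHC class II genes, which present antigen to CD4 T cells and mark B cells and other presenting cells: H2-Ab1, H2-Aa and H2-Eb1 on chromosome 17 (34263227 to 34316674). H2-Ab1 had 49.3, 50.6 and 95 CPM in KO spleen cells and 7.8, 7.08 and 7.06 CPM in control IELs, against 0.726, 0.301 and 0.633 CPM in KO IELp and 1.02, 0.529 and 1.25 CPM in control IELp. H2-Aa had 37.1 ± 15 CPM in KO spleen cells and 3.35 ± 1.56 CPM in control IELs, against 0.158 ± 0.274 CPM in KO IELp and 0.182 ± 0.315 CPM in control IELp. H2-Eb1 had 30.9 ± 10.7 CPM in KO spleen cells and 7.54 ± 0.644 CPM in control IELs, against 0.744 ± 0.0921 CPM in KO IELp and 1.32 ± 0.133 CPM in control IELp. KO spleen cells were the highest group. The B cell genes Cd22 and Cd79b were shared higher as well: Cd22 had 100.02 ± 12.8 CPM in KO spleen cells and 5.39 ± 1.41 CPM in control IELs, against 0.505 ± 0.23 CPM in KO IELp and 0.472 ± 0.36 CPM in control IELp. Cd79b had 63.8 ± 5.52 CPM in KO spleen cells and 44.5 ± 14.5 CPM in control IELs, against 17.7 ± 1.69 CPM in KO IELp and 19.8 ± 1.45 CPM in control IELp. In KO spleen cells the B cell marker Ms4a1 was present beside these genes, and the part of such cells in the result was not tested there. In control IELs Ms4a1 had no counts.

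**Figure D5:**
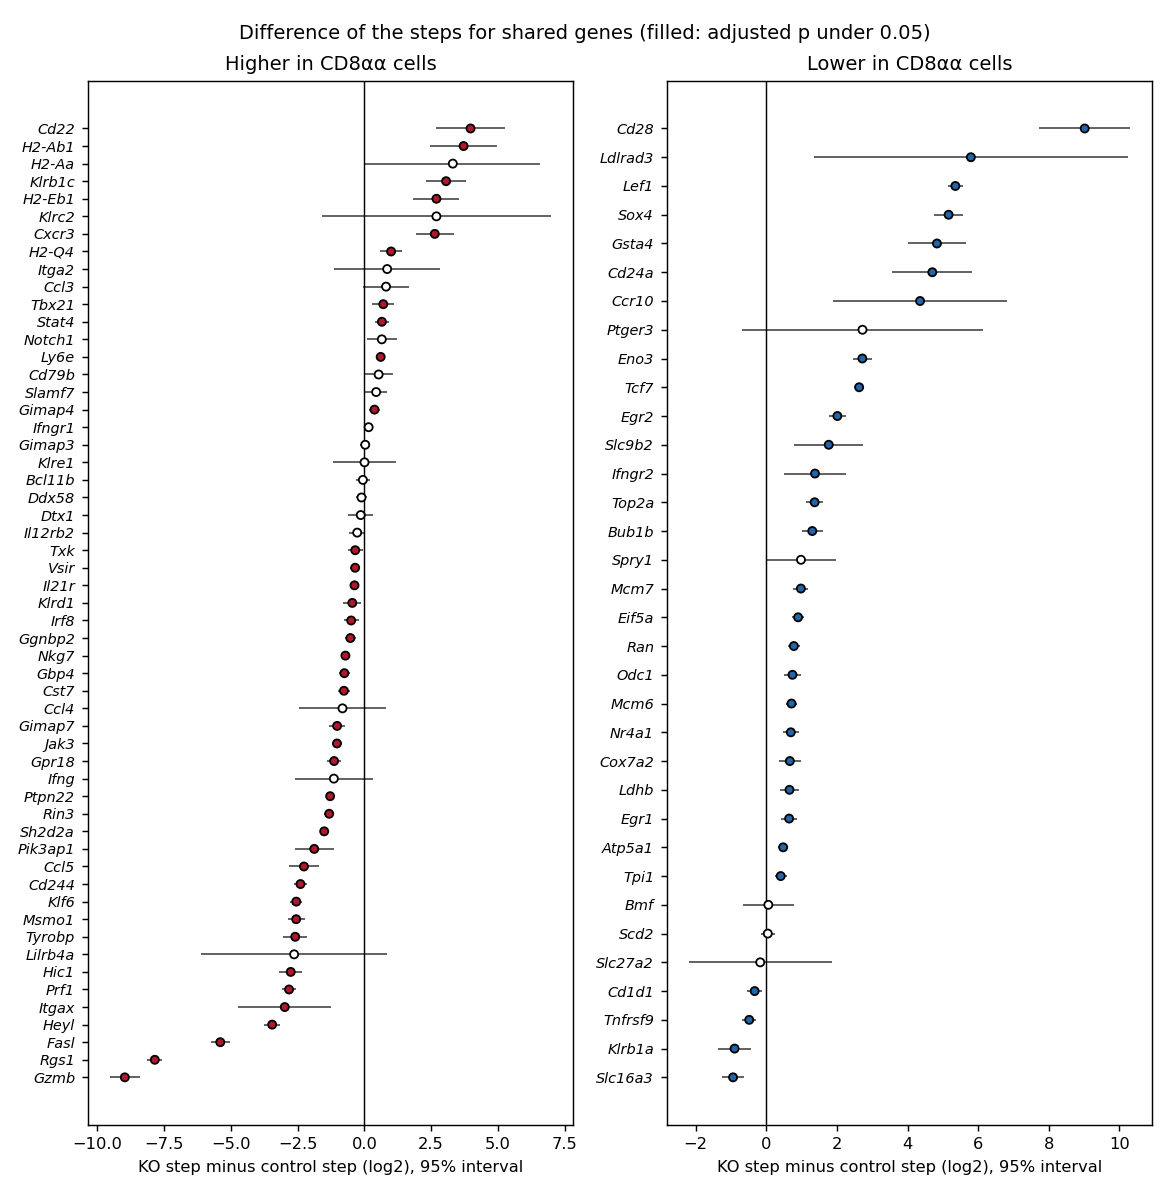
KO step minus control step on the log2 scale (points) with 95% intervals (lines) for the shared genes named in the text that had counts in all 4 groups; filled points had an adjusted p under 0.05 in the edgeR test of the difference. Gimap3, Bcl11b, Ddx58, Ifngr1 and Scd2 had narrow intervals around 0, Gzmb, Rgs1 and Fasl rose further in the control step, and most plotted genes that were lower in CD8αα cells fell further in it (points right of 0).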

How the data were processed

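RNA of 40000 sorted cells per sample was sequenced as 76-base reads in 12 libraries, 3 per group. The mouse build mm10 and the programs HTSeq, STAR, Trimmomatic, DESeq2 and bcl2fastq 2.17 appear in the submitters' processing notes. In which order they ran, on which annotation and whether by strand is not stated there. The authors deposited raw counts per gene for 48663 gene rows, of which 22034 were at 0 in all libraries and 27 had symbols turned into dates. Rows that name no gene held 58.8 to 61.0% of reads and were left out. The authors' second table, named FPM, equals CPM of the gene rows, with a largest gap of 4.99e-06.

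Counts were filtered with filterByExpr, which left 15757 genes, scaled by TMM and fitted with 4 groups in edgeR 4.0.16 (R 4.3.3) by quasi-likelihood, with Benjamini-Hochberg adjustment over all tested genes. The contrasts were the KO step, the control step, their average and their difference. SEs come from the fitted information and the posterior quasi-dispersion, and 95% intervals from a t distribution. The fit was tested on simulated counts. Genes called at an adjusted p under 0.05 were compared with the overlap rule on CPM. The rule for named genes took the 20 largest changes each way among shared genes of at least 10 CPM, ranked by the smaller step, up to 4 members per list without overlap by smallest adjusted p, and up to 2 per list called in opposite directions. It added 2 genes per marker list, the sorted proteins, Zbtb7a and 3 genes on each side of the edge. The text describes part of them. The members and lists were chosen with earlier results of these data known. DESeq2 1.42.0, limma 3.58.1, other scalings and filters, a replicate term, a model with 2 terms and leaving out each library were tried as alternatives. Totals of 13432598 to 19947734 gene counts set the precision of each value, and intervals on counts cover counting error only. Libraries of different groups with the same replicate number did not deviate together. Some genes are not reported here.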

Additional observations from a re-analysis of the deposited data

Results flagged for a closer look

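The edgeR test called a difference between the KO step (KO spleen CD8αα cells over KO IELp) and the control step (control CD8αα IELs over control IELp) for 80 of 105 genes tested among those named, and for 46.7% of all tested genes. Some named genes had been chosen for opposite calls in the steps. Each value is the KO step minus the control step on the log2 scale, at an adjusted p under 0.05. Organ and genotype cannot be told apart in these differences.

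Genes shared and higher in CD8αα cells whose control step was the larger rise have negative values. The difference was -8.97 for Gzmb, -7.85 for Rgs1, -5.40 for Fasl, -3.45 for Heyl, -3.04 for Cd8a, -2.98 for Itgax, -2.82 for Prf1 and -2.76 for Hic1. Further values were -2.59 for Tyrobp, -2.56 for Msmo1, -2.55 for Klf6, -2.39 for Cd244, -2.26 for Ccl5, -1.88 for Pik3ap1, -1.51 for Sh2d2a and -1.32 for Rin3. It was also -1.28 for Ptpn22, -1.13 for Gpr18, -1.03 for Jak3, -1.02 for Gimap7, -0.77 for Cst7, -0.75 for Gbp4 and -0.71 for Nkg7. Next came -0.52 for Ggnbp2, -0.50 for Irf8, -0.45 for Klrd1, -0.37 for Il21r, -0.35 for Vsir and -0.34 for Txk.

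Genes shared and higher whose KO step was the larger rise have positive values. The difference was 3.98 for Cd22, 3.72 for H2-Ab1, 3.06 for Klrb1c, 2.70 for H2-Eb1, 2.64 for Cxcr3, 2.36 for Cd44, 1.00 for H2-Q4, 0.71 for Tbx21 and 0.66 for Stat4. Further values were 0.61 for Ly6e and 0.38 for Gimap4.

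Genes shared and lower whose control step was the larger fall have positive values. The difference was 9.02 for Cd28, 5.79 for Ldlrad3, 5.35 for Lef1, 5.16 for Sox4, 4.83 for Gsta4, 4.70 for Cd24a, 4.35 for Ccr10 and 2.72 for Eno3. Further values were 2.63 for Tcf7, 2.01 for Egr2, 1.77 for Slc9b2, 1.38 for Ifngr2, 1.37 for Top2a, 1.30 for Bub1b, 0.98 for Mcm7 and 0.90 for Eif5a. It was also 0.78 for Ran, 0.74 for Odc1, 0.71 for Mcm6, 0.69 for Nr4a1, 0.67 for Cox7a2, 0.66 for Ldhb, 0.64 for Egr1 and 0.48 for Atp5a1. Next came 0.41 for Tpi1.

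Genes shared and lower whose KO step was the larger fall have negative values. The difference was -0.94 for Slc16a3, -0.90 for Klrb1a, -0.49 for Tnfrsf9 and -0.33 for Cd1d1.

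The remaining genes were not shared. The difference was -7.51 for B4galnt2, 7.49 for S1pr1, -6.81 for Itgae, 6.74 for Eomes, 5.74 for Klf2, -3.48 for Litaf, 3.43 for Il7r and 2.42 for Ifi27l2a. Further values were -2.27 for Hmgcs1, 1.98 for Rtp4 and 0.80 for Polr1e.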

How the results depend on the processing

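Under the alternatives to the edgeR test the counts of called genes stayed within 1.5 times, apart from the following. With DESeq2 size factors 1712 genes lay above and 1964 below without overlap, and with TMM-scaled CPM 1725 and 1953, by the construction of the scaling. With limma on log2 of CPM, 1244 genes were higher and 3181 lower in both steps with a pseudocount of 1, and 1231 and 3076 with 0.1. The median of all genes then shifted by -0.14 and -0.18 on the log2 scale, and 33.8% and 32.8% of calls were higher, against 48.5% in the edgeR test. These limma runs used CPM without TMM factors, unlike the edgeR fit. The factors were 0.891 to 0.986 in CD8αα libraries and 1.06 to 1.07 in IELp libraries. The part of this scaling in the shift was not tested. Where the nearest libraries had to be 2-fold apart, 212 genes lay above and 426 below, and these were also the shared counts, since the condition is stricter. Leaving out each library in turn gave 4591 to 4808 genes called higher and 4904 to 5222 lower, 1109 to 1212 above and 3080 to 3336 below without overlap, and 1652 to 1987 higher and 1741 to 2110 lower in both steps. It gave 1033 to 1163 shared higher and 1653 to 1937 shared lower genes, and 6746 to 7528 genes whose steps differed. With a replicate block 4783 genes were called higher and 5058 lower. Deviations of libraries with the same number correlated at -0.026 to 0.065, so no strong common deviation was seen. Whether libraries with the same number had a common source was not tested. Among named genes no direction reversed. Under the model with 2 terms, stage and genotype, 10 lost their call: S1pr1, Itgae, Eomes, Litaf, Klf2, Il7r, Bcl2l11, Hmgcs1, Ifi27l2a and Rtp4. Lonp1 gained a call in 7 settings. The counts of shared genes under these alternatives were added after seeing the data. Genes with a few counts in a group have wide intervals, which is what depth limits here.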
